A study of Danio rerio with 3 samples.

Results

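The genes described here are 4 immediate early genes, jun, fos, egr1 and btg2, in cells sorted from zebrafish embryos. They were chosen by symbol and are all 4 of the symbols sought. Each was found once among the 14581 symbols of the table of double positive cells. In the second table, of 33734 gene rows, jun, egr1 and btg2 had 1 row each and fos had 2. The series holds 3 libraries, 1 per sorted population. The first came from kdrl:mCherry; sele:GFP embryos and holds cells positive for both reporters, called double positive below. The other libraries came from kdrl:GFP embryos, and 1 holds the GFP positive cells and the other the GFP negative cells. All embryos were wild type, untreated and 72 hours old after fertilization, and all had been homogenized before the cells were sorted.

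A limit applies to the kdrl:GFP embryos. Their table has a column EH_1 and a column EH_2, and no label says which of these is the GFP positive and which the GFP negative library. The libraries are therefore called EH_1 and EH_2, and no statement below says which population a value belongs to. The kdrl and sele reporters rest on regulatory regions of a Vegf receptor gene and of the E-selectin gene, so that the double positive sort aims at endothelial cells. No library was made from embryos that had not been homogenized and sorted. Levels in intact embryos were not measured here.

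Immediate early genes are transcribed within minutes after a cell meets a growth factor, a stress or a mechanical stimulus, with no need for new protein. Signals through Map kinases act on factors already present, such as Srf with its Elk partners and Creb, and these switch the genes on. Jun and Fos proteins pair through leucine zippers to form the AP-1 transcription factor. Egr1 is a zinc finger transcription factor that is held in check by Nab co-repressors. Btg2 is an anti-proliferative protein that recruits the Ccr4-Not deadenylase, which shortens the poly(A) tails of messenger RNA. In endothelium these genes are known to respond to flow and to Vegf, and in many tissues they are known to respond to dissociation of the tissue.

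All values are FPKM, fragments scaled to the length of the transcript and to the size of the library, so that levels are given per length. With 1 library per population there is no error between samples, no test was run, and high or low is a description of these libraries. Sequencing depth is unknown, so these values carry no counting interval. In the double positive library the median gene stood at 5.98 FPKM and 12.7% of the symbols were listed at 0. Median levels were 1.36 FPKM in EH_1 and 1.57 FPKM in EH_2, with 29.3% and 28.0% of the gene rows listed at 0. The tables differ in their gene sets and may have been normalized separately. Of 12507 symbols in both, the 8699 with at least 1 FPKM in every library had a median level 1.41 times higher in double positive cells than in EH_1, and 1.52 times higher than in EH_2. Between EH_1 and EH_2 this median ratio was 1.07.

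Markers of other cell types were read beside the members, each list as a sum over its genes. All 9 general endothelial markers were found in the double positive library, where they summed to 3421 FPKM, with 8 at 100 FPKM or more and none at 0. The same list summed to 883 FPKM in EH_1 and 27.95 FPKM in EH_2. Neutrophil and macrophage markers, 5 genes, summed to 90.4 FPKM in double positive cells, 2183 FPKM in EH_1 and 47.6 FPKM in EH_2. On the FPKM + 1 scale, every endothelial marker differed between EH_1 and EH_2 by 10.9-fold to 114-fold. Every myeloid marker differed by 7.82-fold to 64.1-fold on that scale, and all of these markers were higher in EH_1. The added 1 FPKM makes such folds smaller where the level in EH_2 is low. Epidermal markers, 5 genes, summed to 1697 FPKM in double positive cells, 3255 FPKM in EH_1 and 6473 FPKM in EH_2. Of the sum in double positive cells, krt8 alone gave 1494 FPKM and the other genes 17.9 to 85.6 FPKM each, and krt8 was also the 1 epidermal marker higher in EH_1 than in EH_2. Neuronal markers, 4 genes, summed to 22.2 FPKM in double positive cells, 85.3 FPKM in EH_1 and 277 FPKM in EH_2. Of these, gap43 was listed at 0 in double positive cells and did not differ between EH_1 and EH_2. Erythroid markers, 5 genes, summed to 496 FPKM in double positive cells, 4881 FPKM in EH_1 and 5094 FPKM in EH_2. Muscle markers, 4 genes, summed to 67.8 FPKM in double positive cells, 849 FPKM in EH_1 and 906 FPKM in EH_2. These levels were not used to give EH_1 or EH_2 a population, and their part in the results on the members was not tested.

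All 4 members were among the most abundant transcripts of every library. Each ranked in the top 5% of the double positive library, of EH_1 and of EH_2, where the share of all genes is 5.01%, 5% and 5% by construction. At a fixed level, all 4 reached 100 FPKM in each library, against 5.51% of symbols in the double positive library, 1.95% of gene rows in EH_1 and 1.75% in EH_2. Among symbols in both tables, 284 of 12507 (2.27%) reached 100 FPKM in all 3 libraries.

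The level of jun, which encodes the central Jun subunit of AP-1, was 2573 FPKM in double positive cells, 1301 FPKM in EH_1 and 1133 FPKM in EH_2. It ranked 15th of 14581 symbols in double positive cells and 46th of 33734 rows in both EH_1 and EH_2. The double positive library was the highest of these, and EH_1 and EH_2 lay close together. Among the 12507 symbols that both tables hold, jun ranked 14th in double positive cells, 21st in EH_1 and 19th in EH_2.

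For fos, the Fos partner of Jun, the level was 2315 FPKM in double positive cells, 2139 FPKM in EH_1 and 1780.3 FPKM in EH_2. It ranked 17th of 14581 symbols in double positive cells, and 20th in EH_1 and 28th in EH_2 of 33734 rows. Among the 12507 symbols in both tables, fos ranked 16th in double positive cells, 7th in EH_1 and 8th in EH_2. The values for EH_1 and EH_2 belong to the gene row ENSDARG00000031683, the row of highest FPKM with the symbol fos, whose identifier the gene name table also pairs with FOS. A second row with the symbol, ENSDARG00000097234, stood at 482 FPKM in EH_1 and 406 FPKM in EH_2, and that identifier is not in the name table. Summing the rows gave 2621 FPKM in EH_1 and 2186 FPKM in EH_2. How reads were divided between these rows is unknown, and the level of fos in EH_1 and EH_2 is less certain than that of the other members. The double positive table has 1 row for fos, and the current gene table lists fos as an older symbol of fosab.

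The gene of the zinc finger factor, egr1, stood at 424 FPKM in double positive cells, 343 FPKM in EH_1 and 273 FPKM in EH_2. It was the lowest of the members in every library, at rank 171 in double positive cells, rank 231 in EH_1 and rank 262 in EH_2. Even so, only 1.17% of symbols in double positive cells, 0.682% of rows in EH_1 and 0.774% of rows in EH_2 stood above it. Among the 12507 symbols in both tables, egr1 ranked 158th in double positive cells, 130th in EH_1 and 155th in EH_2.

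The anti-proliferative gene btg2 stood at 849.5 FPKM in double positive cells, 774 FPKM in EH_1 and 626 FPKM in EH_2. Its ranks were 72 of 14581 symbols in double positive cells, and 98 in EH_1 and 111 in EH_2 of 33734 rows. Among the 12507 symbols in both tables, its ranks were 67 in double positive cells, 54 in EH_1 and 59 in EH_2. In each library btg2 lay between fos and egr1. The order of levels was jun, fos, btg2, egr1 in double positive cells and fos, jun, btg2, egr1 in both EH_1 and EH_2. Whether jun and fos, the neighbours that change places, differ beyond an error between samples cannot be told with 1 library each.

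**Figure D1:**
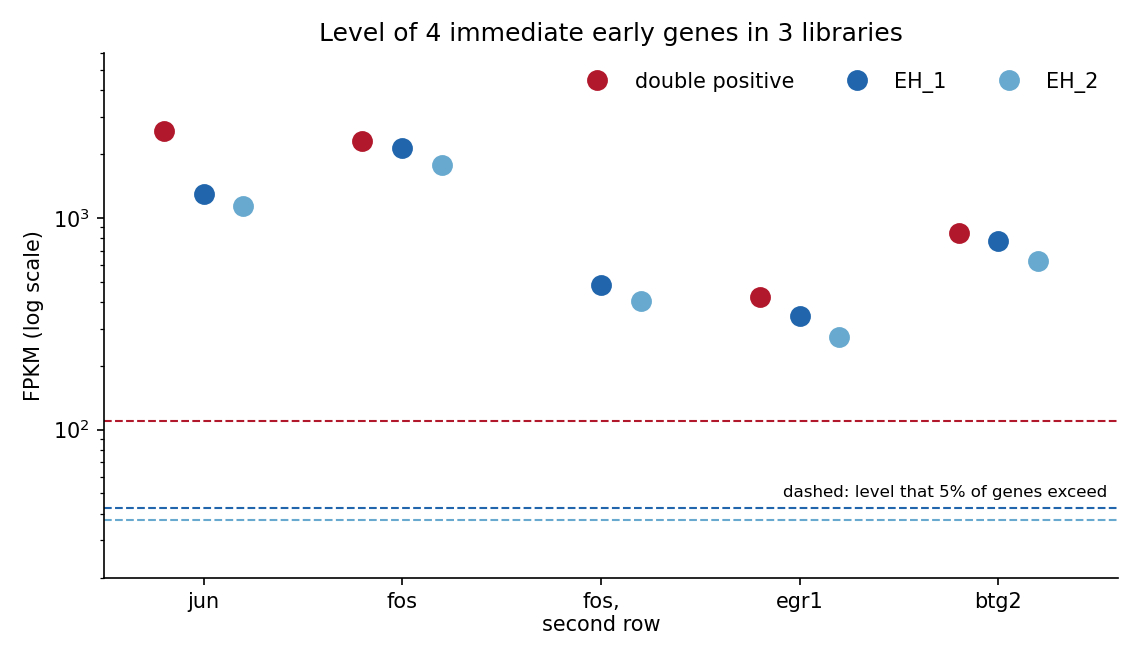
Level of each member in FPKM (log scale) in the double positive library, EH_1 and EH_2, with the second fos row shown apart (1 point per library, no replicates). Dashed lines mark the level that 5% of the genes of each library exceed, and every point lies above the line of its own library.

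The members differed little between EH_1 and EH_2, and so did most gene rows. None of the 4 differed 2-fold or more on the log2(FPKM + 1) scale, on which 13.6% of all 33734 gene rows did. The share was 23.0% among the 20025 rows with at least 1 FPKM in either library. It was 19.3% among the 719 rows with at least 100 FPKM in either, which are closest in level to the members. With 4 members against such shares, nothing is read from this count.

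Set as EH_1 over EH_2, the ratio was 1.15 for jun, 1.202 for fos, 1.24 for btg2 and 1.26 for egr1. On the log2 scale these are 0.20, 0.26, 0.31 and 0.33. All 4 were higher in EH_1, and this direction held under each of the scalings tried. The median of the 719 abundant rows was itself 0.24 higher in EH_1, and their median absolute difference was 0.35. Of these rows, 28.0% differed by less than jun did, 37.4% by less than fos, 42.8% by less than btg2 and 47.0% by less than egr1. The differences of all 4 members were thus below the median absolute difference of the abundant rows. The endothelial markers differed by 10.9-fold or more between the same libraries on the FPKM + 1 scale. The second fos row had a ratio of 1.19, and the summed fos rows had a ratio of 1.199. In sorted bulk RNA, fewer cells that hold a transcript and less of it per cell cannot be told apart.

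**Figure D2:**
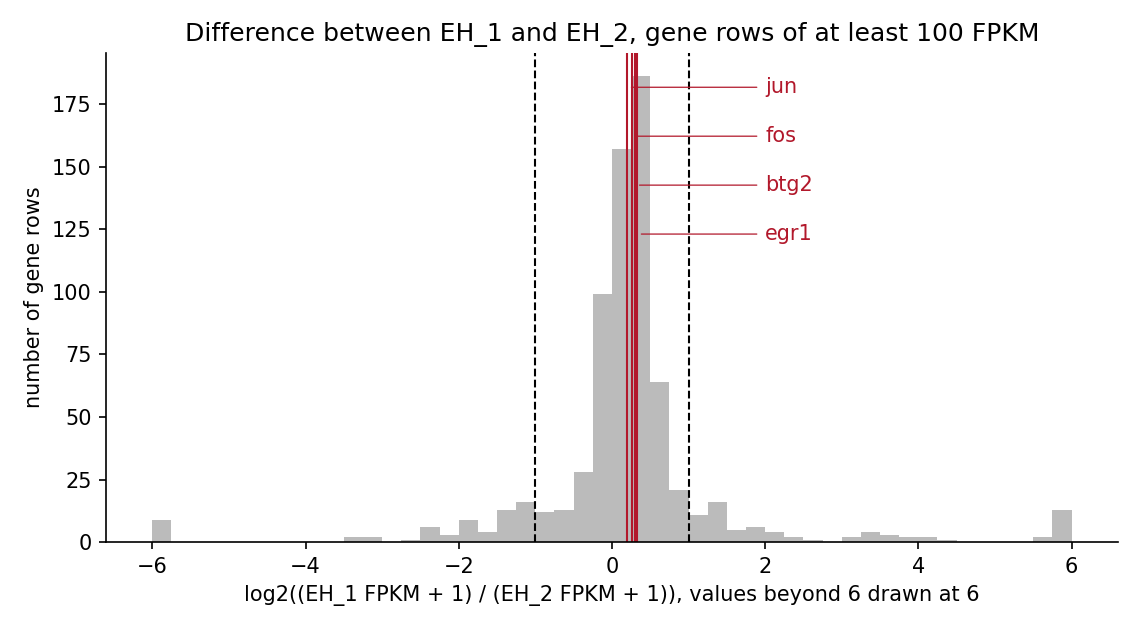
Number of gene rows by log2 difference, EH_1 over EH_2 on the log2(FPKM + 1) scale, for the 719 rows with at least 100 FPKM in either library. Dashed lines mark 2-fold, beyond which 19.3% of rows lie, and red lines mark the members, at 0.20 to 0.33.

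Set against the double positive library, jun stood apart from the other members. The ratio of double positive cells to EH_1 was 1.98 for jun, 1.23 for egr1, 1.098 for btg2 and 1.08 for fos. Against EH_2 it was 2.27 for jun, 1.55 for egr1, 1.36 for btg2 and 1.30 for fos. None of the 4 was 2-fold or more above the higher of EH_1 and EH_2, where 14.3% of symbols were. Above the lower of EH_1 and EH_2 by 2-fold or more there was 1 member, jun, against 26.5% of symbols, a share close to that among the members.

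These ratios cross tables and contain the general shift between them. After scaling by the median ratio of shared genes, jun was 0.48 higher on the log2 scale in double positive cells than in EH_1 and 0.58 higher than in EH_2, and no member reached 2-fold. The same scaling turned fos to 0.39 lower than in EH_1 and 0.23 lower than in EH_2, and btg2 to 0.37 and 0.17 lower. For egr1 it gave 0.19 lower than in EH_1 and 0.03 higher than in EH_2. Among the members, a direction between tables is therefore given for jun alone. It was higher in double positive cells before scaling and after each of the scalings tried. After scaling it was higher by 0.40 to 0.48 against EH_1 and by 0.45 to 0.58 against EH_2. Differences of this size are not particular to jun, and genes often used as constant references moved both ways. By the median ratio scaling, rplp0 was 0.44 higher than in EH_1 and 0.60 higher than in EH_2. The same scaling put actb1 1.42 lower than in EH_1 and 1.39 lower than in EH_2.

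Ratios between members of 1 library do not depend on such scaling. The ratio of fos to btg2 was nearly the same in all libraries, 2.73 in double positive cells, 2.76 in EH_1 and 2.84 in EH_2. That of btg2 to egr1 was 2.01 in double positive cells, 2.26 in EH_1 and 2.29 in EH_2. By contrast, jun was 1.11 times fos in double positive cells, 0.608 times in EH_1 and 0.636 times in EH_2. Relative to btg2, jun was 3.03-fold in double positive cells, 1.68-fold in EH_1 and 1.81-fold in EH_2. The ratio of jun to egr1 was 6.07 in double positive cells, 3.79 in EH_1 and 4.15 in EH_2.

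Jun thus took a larger part relative to each other member in double positive cells, by 1.46-fold to 1.83-fold, and fos, btg2 and egr1 kept their proportions to one another within 1.19-fold. With the fos rows summed, the ratio of fos to btg2 was 2.73 in double positive cells, 3.39 in EH_1 and 3.49 in EH_2, and jun was 0.496 times fos in EH_1 and 0.518 times in EH_2. The proportion of fos to the others is then less constant, up to 1.47-fold between libraries, and that of jun to fos differs more. The tables also differ in their gene sets and may rest on different gene models, and the gene lengths behind the values are unknown. A difference of population and one of gene model or normalization therefore cannot be told apart.

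**Figure D3:**
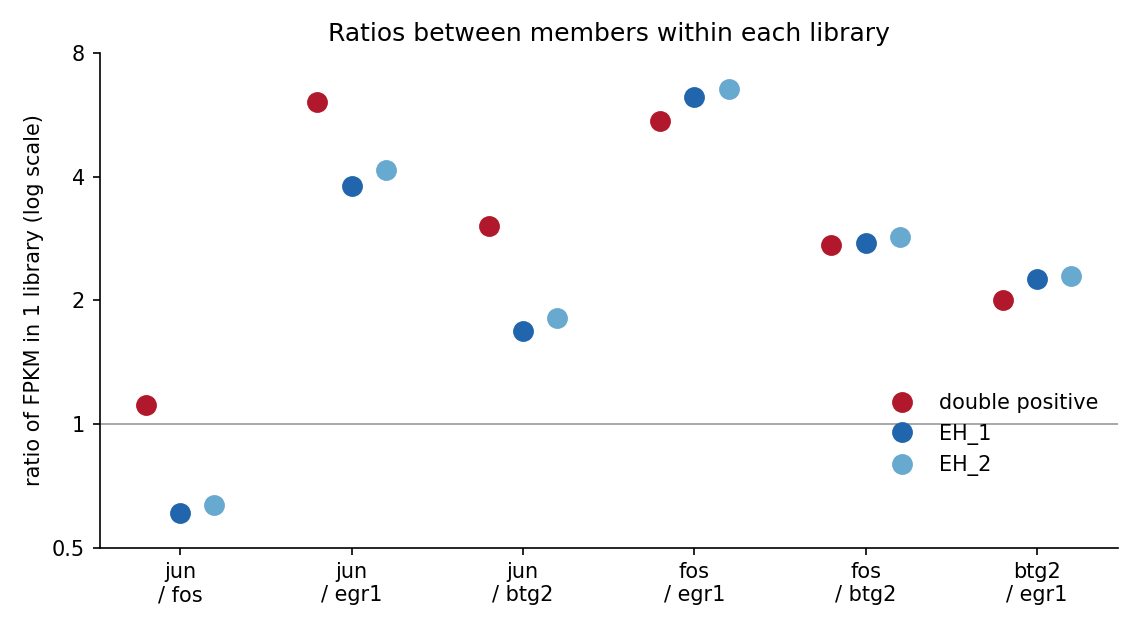
Ratio of FPKM between each pair of members within the double positive library, EH_1 and EH_2 (log scale, 1 point per library, fos taken from its row of highest FPKM). The ratios with jun on top are highest in the double positive library, while fos over btg2 lies between 2.73 and 2.84 in all libraries.

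Within their families, in which shares also need no scaling between libraries, the members held the largest part in every library. Of the summed FPKM of jun, junba, junbb and jund, jun held 64.5% in double positive cells, 56.3% in EH_1 and 55.7% in EH_2. The JunB gene junbb was next, at 617 FPKM in double positive cells, 549.8 FPKM in EH_1 and 548 FPKM in EH_2. Its copy junba stood at 484 FPKM in double positive cells, 329 FPKM in EH_1 and 251 FPKM in EH_2. The lowest of the family, jund, stood at 314 FPKM in double positive cells, 129 FPKM in EH_1 and 102 FPKM in EH_2. The ratio of double positive cells to EH_1 was 2.43 for jund and that to EH_2 was 3.09, both larger than for jun.

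Among fos, fosb, fosl1a and fosl2, fos held 74.2% in double positive cells, 67.7% in EH_1 and 68.2% in EH_2. These shares leave out the second fos row, at 482 FPKM in EH_1 and 406 FPKM in EH_2. Counting it would raise the share of fos in EH_1 and EH_2, nearer to that in double positive cells, and lower the other shares there. The share of fosb, which encodes another Fos partner of Jun, was 10.5% in double positive cells, 22.9% in EH_1 and 21.3% in EH_2. Its level was lower in double positive cells, at 326 FPKM, than in EH_1, at 725 FPKM, or in EH_2, at 555 FPKM. The Fos-related gene fosl1a stood at 353 FPKM in double positive cells, 222 FPKM in EH_1 and 241 FPKM in EH_2.

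In the Egr family the share of egr1 was 95.4% in double positive cells, 80.3% in EH_1 and 71.5% in EH_2. The rest was mostly egr2a, a paralog of the hindbrain and neural crest factor gene egr2b, at 12.5 FPKM in double positive cells, 62.4 FPKM in EH_1 and 94.7 FPKM in EH_2. The paralog egr3 was well below egr1 in each library, at 4.59 FPKM in double positive cells, 19.9 FPKM in EH_1 and 11.5 FPKM in EH_2. The co-repressor gene nab2 stood at 5.85 FPKM in double positive cells, 3.60 FPKM in EH_1 and 2.37 FPKM in EH_2, far below egr1 in each. Another co-repressor gene, nab1a, stood at 5.79 FPKM in EH_1 and 2.40 FPKM in EH_2. On the log2(FPKM + 1) scale it lay just inside 2-fold as deposited, at 0.997. It passed when scaled to an equal sum, at 1.03, but not when scaled to the same upper quartile or by the median ratio.

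Among btg1, btg2, btg3 and btg4, btg2 held 73.4% in double positive cells, 84.2% in EH_1 and 84.0% in EH_2. The paralog btg1 made up most of the rest, at 277 FPKM in double positive cells, 124 FPKM in EH_1 and 102 FPKM in EH_2. The gene btg4 was listed at 0 in all 3 libraries. The related Tob genes were lower than btg2, with tob1b at 132 FPKM in double positive cells, 70.5 FPKM in EH_1 and 107 FPKM in EH_2. Its paralog tob1a stood at 61.6 FPKM in double positive cells, 29.6 FPKM in EH_1 and 33.1 FPKM in EH_2.

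**Figure D4:**
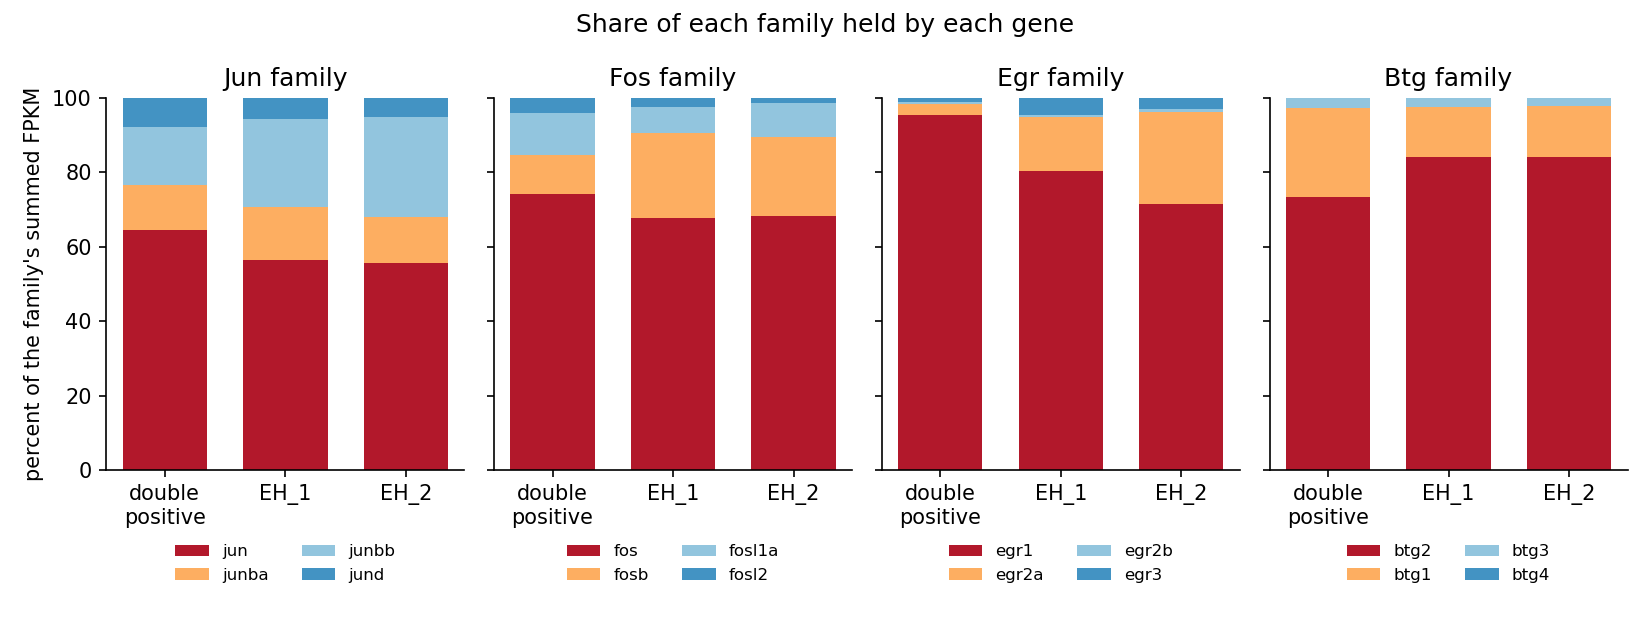
Percent of each family's summed FPKM held by each gene in the double positive library, EH_1 and EH_2, for family genes found in both tables and with the second fos row left out. The members, in red at the base of the bars, hold between 55.7% and 95.4%.

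Further genes of the immediate early response were read from lists chosen with earlier results of these data known. Of 11 AP-1 genes other than jun and fos, 6 reached 100 FPKM in all 3 libraries, against 2.27% of symbols. Their median was 247 FPKM in double positive cells, 129 FPKM in EH_1 and 102 FPKM in EH_2, against 6.86, 5.76 and 5.79 FPKM over all symbols in both tables. Of 42 other immediate early genes, 7 reached 100 FPKM in all 3 libraries, and the median was 99.3 FPKM in double positive cells, 49.7 FPKM in EH_1 and 35.7 FPKM in EH_2. The highest of these in double positive cells was nfkbiab, which encodes an inhibitor of NF-kB, at 463 FPKM, against 260.5 FPKM in EH_1 and 151 FPKM in EH_2. The RNA-binding protein gene zfp36l1b stood at 443 FPKM in double positive cells, 108 FPKM in EH_1 and 59.1 FPKM in EH_2. The Klf factor gene klf6a stood at 432 FPKM in double positive cells, 203 FPKM in EH_1 and 175 FPKM in EH_2.

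Some other immediate early genes passed 2-fold between EH_1 and EH_2, and more of them were higher than lower in EH_1. On the log2(FPKM + 1) scale, 8 of the 42 genes were 2-fold or more higher in EH_1, 3 were 2-fold or more lower in EH_1 and 31 lay within 2-fold, so that 26.2% passed. The share past 2-fold in either direction was 23.0% among rows of at least 1 FPKM and 16.2% among all symbols in both tables. The share of the list was near the first of these and above the second. Of all symbols in both tables, 6.90% were 2-fold or more higher and 9.27% 2-fold or more lower in EH_1. The median log2 difference, EH_1 over EH_2, was 0.29 in the list and 0.24 among the 719 rows of at least 100 FPKM. It was 0.01 among the 20025 rows of at least 1 FPKM and 0 over all symbols in both tables. A lean to EH_1 is thus also seen among abundant rows, but not over these wider sets. The medians of the list, 49.7 FPKM in EH_1 and 35.7 FPKM in EH_2, lie below 100 FPKM. Without replicates, nothing is read from 8 genes against 3. The count of 8 fell to 6 when libraries were scaled to an equal sum or by the median ratio and to 5 when scaled to the same upper quartile, at which zfp36l2, gadd45ab and cyr61l1 no longer passed, and the count of 3 was the same under each. The nuclear receptor gene nr4a1, singled out after its value was seen, stood at 143 FPKM in EH_1 and 33.5 FPKM in EH_2, a 4.19-fold difference on the FPKM + 1 scale. The Map kinase phosphatase gene dusp6, also singled out afterwards, stood at 64.1 FPKM in EH_1 and 20.1 FPKM in EH_2. The 3 genes lower in EH_1 were npas4a, a factor gene known for its response to neuronal activity in mammals, nr4a2a and rgs16. Of these, npas4a stood at 4.89 FPKM in EH_1 and 16.9 FPKM in EH_2, and nr4a2a at 3.09 and 7.82 FPKM. In EH_1 both lay below the median of rows of at least 1 FPKM, 6.90 FPKM. In EH_2 both lay above that median, 6.44 FPKM. The values of rgs16 were near 0, at 0.156 FPKM in EH_1 and 1.72 FPKM in EH_2. Among the 11 other AP-1 genes, fosl2 passed 2-fold as deposited, at 74.4 FPKM in EH_1 and 33.5 FPKM in EH_2, but not when scaled to an equal sum or the same upper quartile. Endothelial and myeloid markers were higher in EH_1 and neuronal markers in EH_2 by the sums given above, and the part of cell composition in these differences was not tested.

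**Figure D5:**
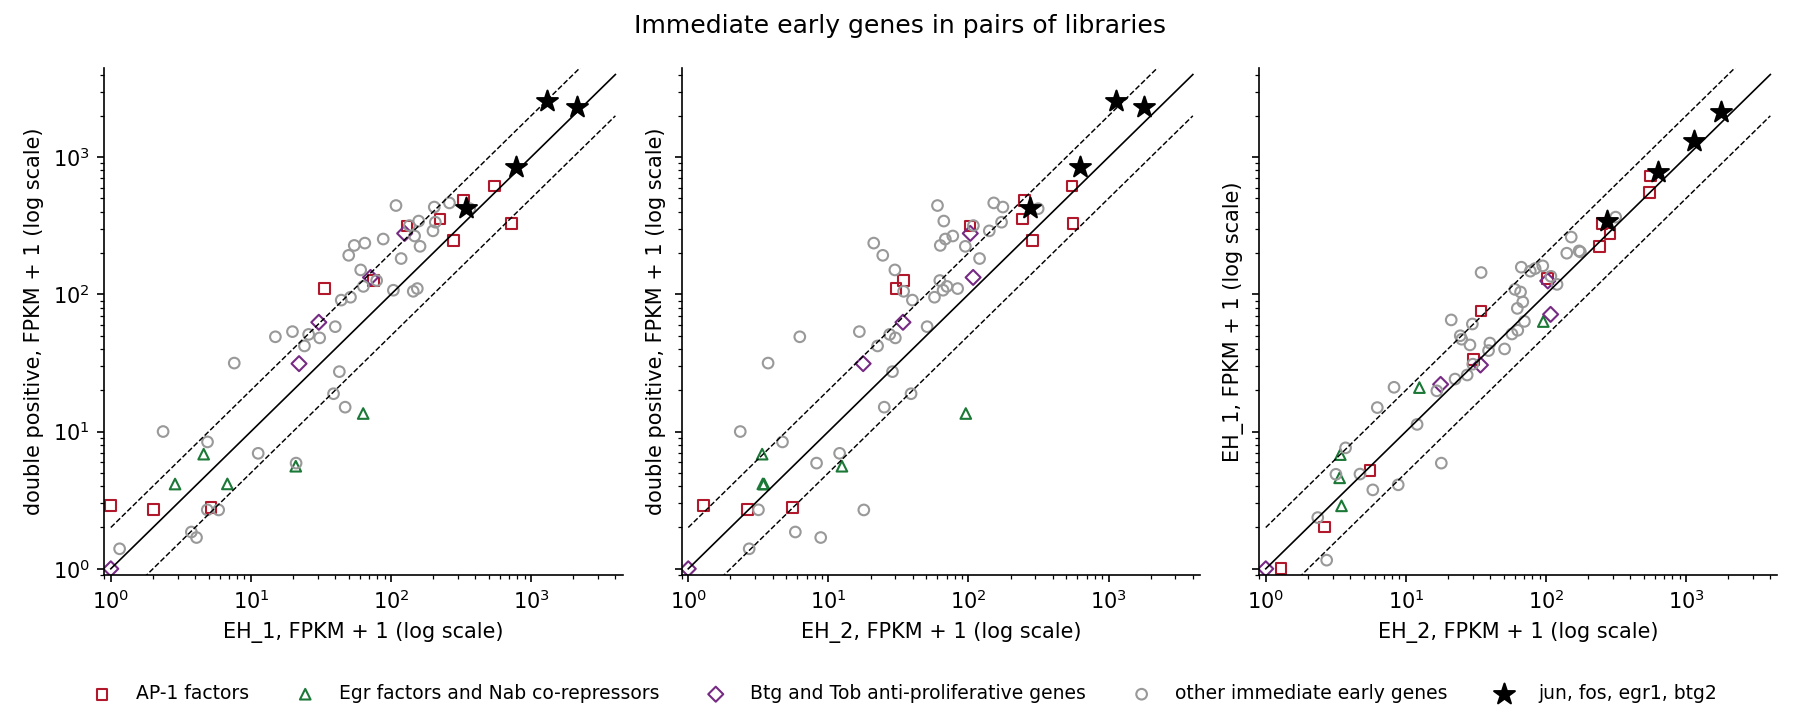
FPKM + 1 (log scales) of the members and of other immediate early genes in pairs of libraries: double positive against EH_1, double positive against EH_2, and EH_1 against EH_2. The solid line marks equal levels and the dashed lines 2-fold, and the members, drawn as stars, lie within 2-fold in the third panel.

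The kinases and factors known to act upstream were much lower than the members. Of 15 such genes in both tables, none reached 100 FPKM in all libraries, against 2.27% of all symbols in both tables. Nothing is read from this count in so short a list. Their median was 22.4 FPKM in double positive cells, 15.6 FPKM in EH_1 and 13.3 FPKM in EH_2. This lay above the medians over all symbols in both tables, 6.86, 5.76 and 5.79 FPKM. The Ets gene elk3, whose product is an Srf partner, was the highest in double positive cells, at 129 FPKM, against 50.1 FPKM in EH_1 and 6.93 FPKM in EH_2. It passed 2-fold between EH_1 and EH_2 as deposited and under each scaling, and the kinase gene map2k1, at 10.6 FPKM in EH_1 and 20.7 FPKM in EH_2, did so under the 3 scalings only. The Erk kinase gene mapk3 stood at 51.9 FPKM in double positive cells, 24.1 FPKM in EH_1 and 21.3 FPKM in EH_2. The Creb gene creb1a stood at 46.1 FPKM in double positive cells, 21.97 FPKM in EH_1 and 24.5 FPKM in EH_2.

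Of 9 genes of the deadenylase with which Btg2 works and of its poly(A)-binding partners, none passed 2-fold between EH_1 and EH_2, against 16.2% of all symbols in both tables, and nothing is read from this count in so short a list. The poly(A)-binding protein gene pabpc1a stood at 702 FPKM in double positive cells, 912 FPKM in EH_1 and 725 FPKM in EH_2. The scaffold gene of the deadenylase, cnot1, stood at 79.7 FPKM in double positive cells, 67.8 FPKM in EH_1 and 60.01 FPKM in EH_2. The subunit gene cnot2 stood at 42.3 FPKM in double positive cells, 37.0 FPKM in EH_1 and 31.7 FPKM in EH_2.

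The transcripts whose levels were most like those of the members were sought over all 3 libraries. Likeness was the largest log2 difference over the 3 libraries, among 8698 other genes with at least 1 FPKM in each. The nearest to jun was the ribosomal protein gene rpl23, never more than 1.06-fold apart, at 2643 FPKM in double positive cells, 1385 FPKM in EH_1 and 1101 FPKM in EH_2. It was followed by rps27.1 and rpl28, within 1.12-fold and 1.14-fold. The nearest to fos were rps13, eef1a1l1 and tpt1, within 1.18-fold, 1.19-fold and 1.33-fold. Those nearest to egr1 were rpl9, rps25 and naca, within 1.07-fold, 1.095-fold and 1.11-fold. For btg2 they were rps3a, eef2b and pabpc1a, within 1.08-fold, 1.15-fold and 1.21-fold. This likeness rests on 3 values per gene.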

How the data were processed

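RNA from 3 sorted cell populations was sequenced, 1 library each. Per the submitters' processing notes, the tools included Cufflinks 2.2.1, TopHat2 2.0.11 and cutadapt, and the genome build was Zv9, also named danRer7. For the annotation and the read filters, nothing is stated. The authors deposited FPKM values, 1 column per library. The name of the double positive table states this unit. For EH_1 and EH_2 it follows from the cuffdiff sheet name and from Cufflinks in those notes. Both kdrl:GFP samples cite the table of EH_1 and EH_2, and its columns were assigned to these samples together and to neither alone.

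Ranks were taken over all rows of a library, and tied values shared a mean percentile. Ratios between libraries are of FPKM as deposited, and calls of 2-fold use log2(FPKM + 1). Folds of the markers and of the genes nearest in level to a member also use FPKM + 1. Tables were joined by exact symbol, and a symbol with several rows took the row of highest FPKM. Scaling alternatives were an equal sum, the upper quartile and the median ratio. The procedure was tested on simulated data. Python 3.11.15, pandas 2.3.3 and numpy 2.4.6 were used.

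The members and the 8 gene lists were chosen with earlier results of these data known. Named genes are the members, the 3 genes of highest FPKM in the double positive library in each list and the 3 nearest in level to each member. Genes of the families of the members, the markers, genes said to be singled out and genes whose calls change with the scaling were named in addition, after their values were seen. The same holds for the reference genes actb1, ppiaa and ppiab. No coordinates are given, because the gene table at hand describes another assembly than that of the data. No sequences were at hand.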

Additional observations from a re-analysis of the deposited data

How the results depend on the processing

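The presence of all 4 members in the top 5% held in each library when ranks were taken over genes above 0 FPKM, genes of at least 1 FPKM, symbols in both tables, or without microRNA, ribosomal protein, mitochondrial and small RNA genes. The lowest percentile of a member under these was 98.4. No member passed 2-fold between EH_1 and EH_2 under any pseudocount, scaling, filter or treatment of repeated symbols tried, with log2 differences between 0.05 and 0.33. With a pseudocount of 0.1 or 10 FPKM the share of all gene rows past 2-fold was 26.8% or 2.72%. Above the lower of EH_1 and EH_2, the count of members past 2-fold was 1 as deposited and 0 when scaled to an equal sum over shared symbols, to the same upper quartile or by the median ratio, since these scalings remove the shift between the tables. Summing rows with the same symbol, limiting rows to 100 FPKM and scaling the counts of listed genes were chosen after seeing the data. No paired analysis was possible because each population has 1 library. Leaving out a library was not possible either. The number of fragments is unknown, so the precision of single values cannot be stated.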

Other observations

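Heat shock genes, another group known to respond to stress, were also abundant in all libraries, with a median of 351 FPKM in double positive cells, 404 FPKM in EH_1 and 412 FPKM in EH_2. Of 12 such genes in both tables, 8 reached 100 FPKM in all 3 libraries, against 2.27% of all symbols in both tables. None passed 2-fold between EH_1 and EH_2 on the log2(FPKM + 1) scale, against 16.2% of these symbols. The gene hsp90aa1.1, at 8.73 FPKM in EH_1 and 18.4 FPKM in EH_2, lay just inside at -0.998 and passed under each of the 3 scalings. The co-chaperone gene dnajb1b exceeded jun and fos in each library, at 3241 FPKM in double positive cells, 2639 FPKM in EH_1 and 2402 FPKM in EH_2. The small heat shock protein gene hspb1 stood at 1841 FPKM in double positive cells, 947.5 FPKM in EH_1 and 582 FPKM in EH_2. The chaperone gene hsp90aa1.2 stood at 888 FPKM in double positive cells, 532 FPKM in EH_1 and 502 FPKM in EH_2.

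Genes often used as constant references were read in the same way. Of 18 in both tables, 10 reached 100 FPKM in all 3 libraries, against 2.27% of all symbols in both tables. As deposited, 1 of them, b2m, passed 2-fold between EH_1 and EH_2, against 16.2% of these symbols. Under each of the 3 scalings gapdh, at 37.9 FPKM in EH_1 and 72.9 FPKM in EH_2, passed as well. The ubiquitin gene ubb stood at 3157 FPKM in double positive cells, 1553 FPKM in EH_1 and 1563 FPKM in EH_2. The elongation factor gene eef1a1l1 stood at 2713 FPKM in double positive cells, 1845 FPKM in EH_1 and 1501 FPKM in EH_2. The ribosomal protein gene rplp0 stood at 2065 FPKM in double positive cells, 1073 FPKM in EH_1 and 893 FPKM in EH_2. These were the highest of the list in double positive cells. The median of the list was 439 FPKM in double positive cells, 526 FPKM in EH_1 and 458 FPKM in EH_2. Some had lower values in the double positive library, with ppiaa at 41.0 FPKM against 3524 FPKM in EH_1 and 2538 FPKM in EH_2. Likewise actb1 stood at 646 FPKM against 1225 FPKM in EH_1 and 1111 FPKM in EH_2. The paralog of ppiaa, ppiab, went the other way, at 1239 FPKM against 782 FPKM in EH_1 and 846 FPKM in EH_2. These comparisons cross tables, so a difference of population and one of gene model or normalization cannot be told apart.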
